A study of Mus musculus with 54 samples.

Results

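The genes of the mitochondrial ribosomal proteins were taken as all protein-coding genes whose symbols begin with Mrpl or Mrps followed by a number, with the exception of Mrps12, which carries the mutations of these mice. This gave 77 of the 54356 genes in each table, and of the 21834 protein-coding ones. RNA was sequenced from whole hearts and livers of male C57BL/6 mice that were 20 weeks old and had eaten a high-fat diet (HFD) with 42% of its energy as fat. There were 3 mice of each of 3 genotypes in each tissue. Mrps12+/+ mice carried the wild-type gene, Mrps12ep/ep mice were homozygous for an error-prone allele of the small subunit protein MRPS12, and Mrps12ha/ha mice for a hyper-accurate allele. Both alleles are constitutive missense mutations, so each cell of a mutant carried them, and all mice ate the same diet. The comparisons therefore show the genotypes on an HFD and not the diet itself. Each mouse had 3 technical libraries in each tissue, pooled by the authors into 1 column, and the labels do not say whether a heart and a liver came from the same mouse.

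The mitochondrial ribosome makes the few proteins that are encoded by mitochondrial DNA, all of them subunits of the oxidative phosphorylation (OXPHOS) complexes. Its rRNAs come from mitochondrial DNA, and all of its proteins are encoded in the nucleus, made in the cytosol and imported. The small subunit binds the mRNA and decodes it, and the large subunit joins the amino acids and releases the chain through its exit tunnel. Many of the proteins have a counterpart in bacterial ribosomes and the others were added during the evolution of mitochondria. By this division the 77 genes held 30 large subunit proteins with a bacterial counterpart and 21 without, and 15 small subunit proteins with a counterpart and 10 without. Mrps18a and Mrps30 were counted with the large subunit, where their proteins sit. The remaining gene, Mrps36, fits the name but its protein is a component of the 2-oxoglutarate dehydrogenase complex.

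All values are normalized counts, that is, gene counts divided by a size factor of each mouse, unless another unit is given. Within a column, the small values fell on multiples of a single step, which was taken as 1 read. On that scale hearts held 11202975 to 51479968 reads and livers 21238091 to 81517014. The shallowest heart came from Mrps12ha/ha mouse 2. Each value of the 77 genes rested on at least 72 reads in the heart and 80 in the liver, and the fewest were those of Mrpl23. Mrps12 itself was between 1028 and 1397 in hearts and between 1508 and 1914 in livers. Its log2 fold change in Mrps12ha/ha hearts was 0.23 (adjusted p = 0.324 from limma), and counts cannot show a missense mutation, so they do not check the genotypes. The 10 cardiomyocyte markers summed to 2321336 to 3864936 in hearts and to 51 to 8625 in livers, and the 10 hepatocyte markers to 5955132 to 7377573 in livers and to 247 to 17976 in hearts.

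Single libraries stood apart from the rest of their group. In Mrps12ep/ep heart mouse 2, 58 of the 77 genes had their lowest value of the 9 hearts. Atrial cardiomyocyte markers summed to 401013 in this heart and to 2560 to 172453 in the other 8, while its cardiomyocyte sum was the lowest, and its fibroblast (78069), macrophage (5534) and mesothelium (3019) sums were the highest. The part of these cells in the values of the 77 genes was not tested. In such bulk RNA, fewer cells of a type and less RNA per cell cannot be told apart. Mrps12ha/ha heart mouse 2 stayed close to the Mrps12+/+ hearts for many of the genes for which the other Mrps12ha/ha hearts differed. Gene counts cannot show whether the label of this heart is right, so the values of the Mrps12ha/ha hearts are given with and without it where calls changed. Erythroid markers summed to 1412562 in Mrps12ha/ha heart mouse 3, to 464536 in mouse 1 and to 199296 in mouse 2, against 91898 to 235749 in Mrps12+/+ and 134493 to 220046 in Mrps12ep/ep hearts. In livers, skeletal muscle markers summed to 21754 and 27366 in Mrps12+/+ mice 1 and 2 and to 27 to 161 in the other 7 mice.

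Together the 77 genes took 0.394% to 0.466% of the reads of a heart and 0.214% to 0.243% of those of a liver. In hearts the share was 0.439% ± 0.0211 in Mrps12+/+, 0.430% ± 0.0360 in Mrps12ep/ep and 0.449% ± 0.0188 in Mrps12ha/ha mice (SD, n = 3). In livers it was 0.227% ± 0.0137, 0.226% ± 0.0125 and 0.222% ± 0.00723 in the same order. The groups overlapped in both tissues. The summed counts of the large subunit genes were 2.41 to 2.55 times those of the small subunit genes in every heart and 2.38 to 2.48 times in every liver. Mrps12ha/ha hearts 1 and 3 had ratios of 2.42 and 2.43, below the 2.50 to 2.54 of the Mrps12+/+ hearts, and mouse 2 had the highest ratio of all, 2.55.

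Levels of different genes were compared as normalized counts per kilobase, with the mean length of the protein-coding transcripts of a gene. The median gene was at 1160 per kb in the heart and 1050 per kb in the liver. Of the 77 genes, 47 in the heart and 50 in the liver lay within 2-fold of that median. Large subunit genes had a median of 1220 per kb and small subunit genes of 958 in the heart, and 1130 and 982 in the liver. Genes with a bacterial counterpart had the higher median in both subunits and both tissues. The heart and the liver were normalized separately, so that their levels stand side by side and were not tested against each other.

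Mrpl42, a large subunit protein without a bacterial counterpart, had the highest level per kb in both tissues. It was at 17707 per kb in the heart, with single hearts from 14702 to 20668, and at 4485 in the liver, with 4145 to 4880. In the heart it was followed by Mrps21 (5996 per kb, 4352 to 8591), the counterpart of bacterial S21, and by Mrpl30 (4511 per kb, 3559 to 5044). The ranges of Mrps21 and Mrpl30 over the hearts overlapped, and that of Mrpl42 lay above both. In the liver Mrpl52, a central protuberance protein, came next at 3798 per kb (3324 to 4507) and Mrpl12, a protein of the stalk that recruits translation factors, was at 3723 (3203 to 4230). Their ranges overlapped each other and that of Mrpl42.

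At the low end, Mrpl19 was at 193 per kb in the heart (80.8 to 286) and at 121 in the liver (60.2 to 169). Mrps26 and Mrpl57 followed in the heart at 224 and 235 per kb, and Mrps25 and Mrpl47 in the liver at 126 and 144, all with ranges that overlapped that of Mrpl19. The order rested on the annotated length. With the union of all exons as the length, chosen after seeing the data, Mrpl42 was at 2857 per kb in the heart (rank 4) and at 724 in the liver (rank 33), and 5 of the 10 highest genes were the same in each tissue. Mrpl19 was then at rank 73 in the heart and 75 in the liver.

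**Figure D1:**
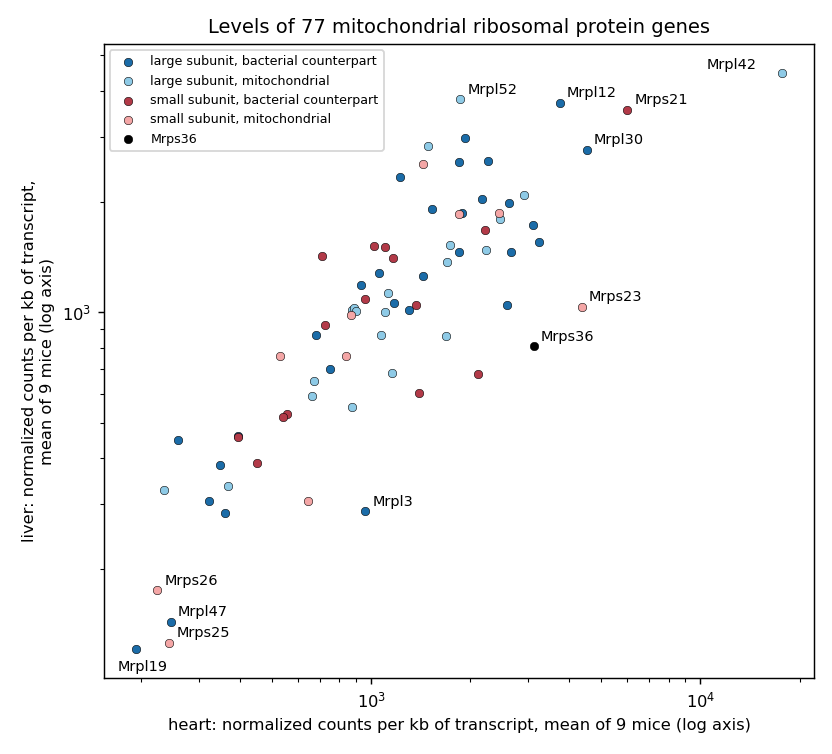
Each of the 77 genes at its mean level in 9 hearts (x axis) and 9 livers (y axis), both in normalized counts per kb of transcript on log axes, with colours for subunit and origin. Mrpl42 is at the top right at 17707 and 4485 per kb, Mrpl19 at the bottom left at 193 and 121, and Mrps23 is at 4361 and 1036.

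The order of the genes was alike in the tissues, with a Spearman rho of 0.81 across the 77 genes, which share their libraries and lengths. Of the 10 genes with the highest level per kb in each tissue 4 were common to both, and of the 10 lowest 8 were. Mrps23 stood at 4361 per kb in the heart and 1036 in the liver. Mrps36 stood at 3118 and 809, and Mrps9, the counterpart of bacterial S9, at 2115 and 681. In the other direction, Mrps10 held rank 57 in the heart and 29 in the liver, and Mrpl27, the counterpart of bacterial L27, ranks 36 and 11. Except for Mrps23, these genes were named after their values were seen.

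The genes differed in how much they varied between mice. The coefficient of variation over the 9 hearts had a median of 14.2% and ran from 5.72% for Mrpl27 to 42.4% for Mrpl23, and over the livers it had a median of 9.56% and ran from 3.40% for Mrpl40 to 39.9% for Mrpl19. In Mrps12+/+ hearts the median of the 77 genes lay within 0.10 of their 9-heart mean on the log2 scale, at 0.08, 0.01 and -0.10 in mice 1, 2 and 3. It was at 0.14, -0.29 and -0.08 in the Mrps12ep/ep hearts and at 0.11, 0.11 and -0.02 in the Mrps12ha/ha hearts. Among the Mrps12ha/ha hearts, 26 genes had their highest value of the 9 hearts in mouse 1, and 12 had their lowest in mouse 3.

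**Figure D2:**
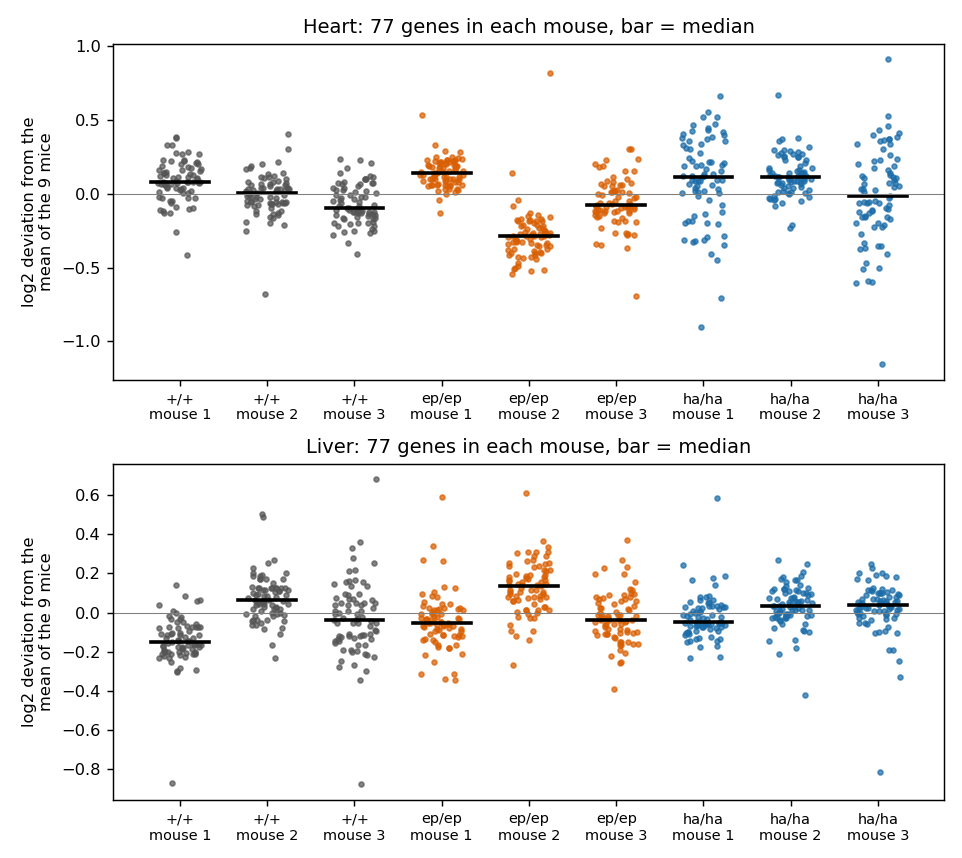
Each point is 1 of the 77 genes in 1 mouse, as the log2 deviation from the mean of the 9 mice of a tissue (y axis), with the mouse on the x axis and a bar at the median. In the heart, Mrps12ep/ep mouse 2 lies low with a median of -0.29, and in the liver the lowest median is that of Mrps12+/+ mouse 1, at -0.15.

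The comparison of Mrps12ha/ha with Mrps12+/+ hearts asked whether hyper-accurate translation goes with other levels of the mRNAs for the ribosome that carries it. The genes did not move as one group. The highest log2 fold changes were those of Mrpl23, Mrpl14 and Mrps21, at 1.01, 0.46 and 0.45, and the lowest those of Mrpl19, Mrps23 and Mrps31, at -0.80, -0.52 and -0.40. Of the 77 genes 41 were higher and 36 lower in the mutants, and their median log2 fold change was 0.04, beside -0.02 over all 16057 genes tested. None passed an adjusted p of 0.05 with limma (smallest 0.213, of Mrpl23 and of Mrpl52), nor with limma-voom on the recovered reads, an alternative chosen after seeing the data. The threshold was passed by 0.0311% of all genes tested. At an unadjusted p under 0.05 there were 10 of the 77, all higher, beside 19.7% of all genes.

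More of the genes were separated in the upward direction than in the downward one. In 20 of the 77 genes, or 26%, every Mrps12ha/ha heart was higher than every Mrps12+/+ heart, where 11.1% of all genes tested were. In 1 gene, Mrps36, or 1.30%, every mutant heart was lower, where 10.0% of all genes were. The cytosolic ribosomal protein genes, 81 of which were tested, had a median log2 fold change of 0.38 in the same hearts, with 80 higher. In the same hearts the cardiomyocyte markers summed to 3203407 to 3864936 in Mrps12ha/ha and to 2710535 to 3021961 in Mrps12+/+ mice, without overlap. Other marker sums of these hearts were lower in Mrps12ha/ha mice without overlap. Fibroblast markers summed to 37971 to 39260 against 41704 to 54576 in Mrps12+/+ mice, mesothelium markers to 313 to 526 against 868 to 1862, and skeletal muscle markers to 492 to 851 against 1053 to 1556. With overlap, atrial cardiomyocyte markers summed to 5747 to 11482 in Mrps12ha/ha hearts and to 9014, 172453 and 126582 in Mrps12+/+ hearts 1, 2 and 3. Adipocyte markers summed to 46, 440 and 14858 in Mrps12+/+ hearts 1, 2 and 3 and to 26 to 60 in Mrps12ha/ha hearts. The part of these differences in the 20 genes was not tested.

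The 3 genes with the lowest fold changes in Mrps12ha/ha hearts were low in mice 1 and 3 and not in mouse 2. Mrpl19, the counterpart of bacterial L19 at the interface of the subunits, was at 1175, 1191 and 1061 in Mrps12+/+ hearts, at 965, 874 and 1112 in Mrps12ep/ep hearts and at 482, 1429 and 404 in Mrps12ha/ha hearts. Mice 1 and 3 were thus the lowest of the 9 hearts and mouse 2 was the highest. Its log2 fold change against Mrps12+/+ was -0.80 (standard error 0.39, adjusted p = 0.275 from limma).

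Mrps23, a small subunit protein without a bacterial counterpart, was at 5621, 4756 and 4344 in Mrps12+/+, at 5272, 4076 and 5339 in Mrps12ep/ep and at 2647, 5252 and 2835 in Mrps12ha/ha hearts. Mrps31, also a small subunit protein found only in mitochondria, was at 1553, 1452 and 1356 in Mrps12+/+, at 1474, 1080 and 1516 in Mrps12ep/ep and at 1014, 1552 and 852 in Mrps12ha/ha hearts. For both genes mouse 2 lay within or beside the range of Mrps12+/+ while mice 1 and 3 lay below all other hearts. Their log2 fold changes were -0.52 and -0.40 (standard errors 0.25 and 0.22, adjusted p = 0.270 and 0.314 from limma).

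In Mrpl14 and Mrps21, which were higher, mouse 2 was again nearest to Mrps12+/+. Mrpl14, the counterpart of bacterial L14, was at 1402, 1307 and 1186 in Mrps12+/+, at 1581, 982 and 1307 in Mrps12ep/ep and at 1975, 1392 and 2052 in Mrps12ha/ha hearts, so that mouse 2 fell within the Mrps12+/+ range. Mrps21 was at 2433, 2416 and 2253 in Mrps12+/+, at 2895, 1943 and 2289 in Mrps12ep/ep and at 3836, 2555 and 3476 in Mrps12ha/ha hearts. Here every Mrps12ha/ha heart was above every Mrps12+/+ heart, but mouse 2 was below the highest Mrps12ep/ep heart. The log2 fold changes were 0.46 for Mrpl14 and 0.45 for Mrps21 (standard errors 0.20 and 0.18, adjusted p = 0.248 and 0.228 from limma).

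**Figure D3:**
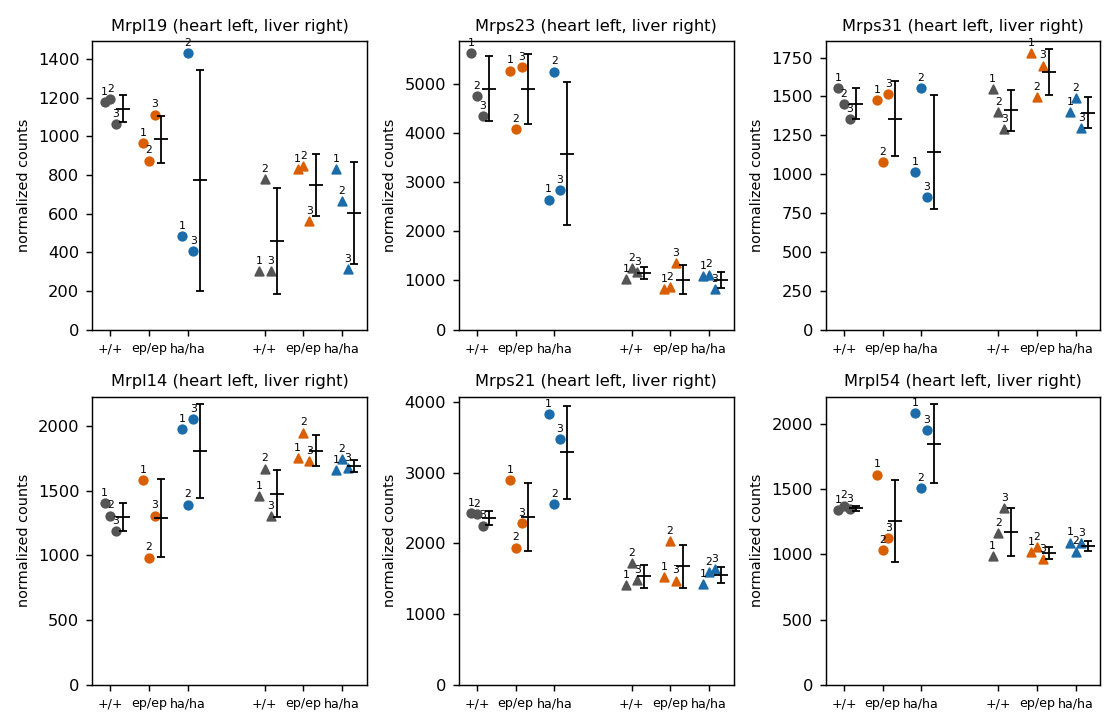
Normalized counts (y axis, from 0) of 6 genes in each mouse, with circles for hearts, triangles for livers, mouse numbers above the points and the mean with SD (n = 3) beside each group. Mrps12ha/ha hearts 1 and 3 are low for Mrpl19, Mrps23 and Mrps31 and high for Mrpl14, Mrps21 and Mrpl54, with heart 2 the nearest of the 3 to the Mrps12+/+ mean in each panel.

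Without Mrps12ha/ha mouse 2, 18 of the 77 genes (23.4%) passed an adjusted p of 0.05, where 27% of all genes did. Of these, 8 were higher in the other 2 mutants, among them Mrpl14, Mrpl52, Mrpl54, Mrps16 and Mrps21, and 10 were lower, among them Mrpl19, Mrpl10, Mrps2, Mrps23, Mrps27 and Mrps31. With array weights, by which limma gives each heart a weight of its own (0.167 for this heart, the lowest), 30 of the 77 (39.0%) passed, 19 higher and 11 lower, beside 34.7% of all genes. The groups without mouse 2 did not overlap, with the mutants higher, in 27 of the 77 genes, beside 28.3% of all genes. With the mutants lower, they did not overlap in 17 of the 77, beside 30%. Over the alternatives the adjusted p of Mrpl19 ran from 0.00213 to 0.611, that of Mrps23 from 0.00654 to 0.621 and that of Mrps21 from 0.00696 to 0.559.

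Small subunit genes had the higher medians in Mrps12ha/ha hearts. The median log2 fold change was 0.21 for the 10 small subunit genes found only in mitochondria, of which 6 were higher and 4 lower, from -0.52 to 0.39. It was 0.16 for the 15 with a bacterial counterpart, of which 10 were higher and 5 lower. It was 0.03 for the 30 large subunit genes with a counterpart, 16 of them higher, and -0.02 for the 21 without, 9 of them higher. Both extremes were found within each subunit, since Mrpl14 and Mrpl19 are in the large and Mrps21 and Mrps23 in the small subunit. Of the 5 stalk genes, whose proteins contact the translation factors, 4 were higher, led by Mrpl54 with 0.44, and Mrpl10, the base of the stalk, was at -0.24. Of the 7 genes of the central protuberance 3 were higher, led by Mrpl52 with 0.40, and Mrpl48 was the lowest at -0.15. The 6 genes around the tunnel exit had a median of 0.05, and the 4 of the mRNA path one of 0.11.

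The genes were also split by the length of their transcripts. The 26 shortest, of 440 to 970 bases, had a median log2 fold change of 0.21 in Mrps12ha/ha hearts, with 20 of them higher. The 26 of middle length had -0.03 with 10 higher, and the 25 longest, of 1893 to 6073 bases, -0.02 with 11 higher. In Mrps12ep/ep hearts the medians of the same 3 groups were -0.05, -0.08 and -0.11. The part of transcript length in the fold changes was not tested.

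Error-prone hearts were compared with the same Mrps12+/+ hearts, so that this comparison is not independent of the one above. Of the 77 genes 69 were lower and 8 higher in Mrps12ep/ep hearts, with a median log2 fold change of -0.08, beside -0.01 over all genes tested. None passed with limma or with limma-voom, as 0.0% of all genes did, and 1 had an unadjusted p under 0.05, beside 1.69% of all genes. In 2 genes (2.60%) every mutant heart was below every Mrps12+/+ heart, where 3.64% of all genes were, and in 0 genes above, where 4.40% were. The direction rested on Mrps12ep/ep mouse 2, described above. Without it 54 genes were higher and 23 lower, with a median of 0.05.

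The genes without overlap were Mrpl17 and Mrpl15. Mrpl17, the counterpart of a bacterial protein at the tunnel exit, was at 1099, 1118 and 1255 in Mrps12+/+ and at 1079, 912 and 848 in Mrps12ep/ep hearts, which limma gave as -0.29 on the log2 scale (standard error 0.12, adjusted p = 1.0). Mrps12ha/ha hearts had 1191, 1087 and 1126. Mrpl15 had a log2 fold change of -0.20. After Mrpl17 the lowest values were those of Mrpl19 and Mrps28, at -0.22 and -0.20. The highest value was that of Mrpl23, at 0.495, described below with its pseudogene. Next to it, Mrps6 was at 1044, 2012 and 1139 in Mrps12ep/ep hearts and at 953, 1412 and 1245 in Mrps12+/+ hearts, a log2 fold change of 0.17. It was the one gene whose highest value of the 9 hearts was in Mrps12ep/ep mouse 2, and without that mouse its log2 fold change was -0.12.

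Between the mutants, 62 of the 77 genes were higher and 15 lower in Mrps12ha/ha than in Mrps12ep/ep hearts, with a median log2 fold change of 0.15, beside -0.02 over all genes. None passed with limma (0.0249% of all genes did) or with limma-voom, and 13 had an unadjusted p under 0.05, all higher in Mrps12ha/ha hearts, beside 17.9% of all genes. The groups did not overlap in 5 genes (6.49%) that were higher in Mrps12ha/ha hearts, beside 8.77% of all genes, and in 1 gene (1.30%) that was lower, beside 7.82%. Without Mrps12ep/ep mouse 2 the split was 42 higher and 35 lower and the median 0.02. Without Mrps12ha/ha mouse 2, 19 genes passed (24.7%), 14 of them higher, beside 23.2% of all genes, and with array weights 33 (42.9%) did, beside 39.3%.

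The highest positive log2 fold change between the mutants was that of Mrpl54, a stalk protein, and the lowest that of Mrpl19, at -0.58. Mrpl54 was at 1612, 1032 and 1122 in Mrps12ep/ep and at 2082, 1507 and 1954 in Mrps12ha/ha hearts. In Mrps12+/+ hearts Mrpl54 was at 1337, 1373 and 1349. Its log2 fold change between the mutants was 0.57 (standard error 0.18), with an adjusted p of 0.238 by limma that ran from 0.00232 to 0.539 under the alternatives. The 2 mutant groups overlapped, since Mrps12ep/ep mouse 1 was above Mrps12ha/ha mouse 2. The genes that were higher without overlap were Mrpl13, Mrpl17, Mrpl51, Mrpl52 and Mrps14, and the gene that was lower was Mrps6, with 863, 972 and 995 in Mrps12ha/ha hearts.

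**Figure D4:**
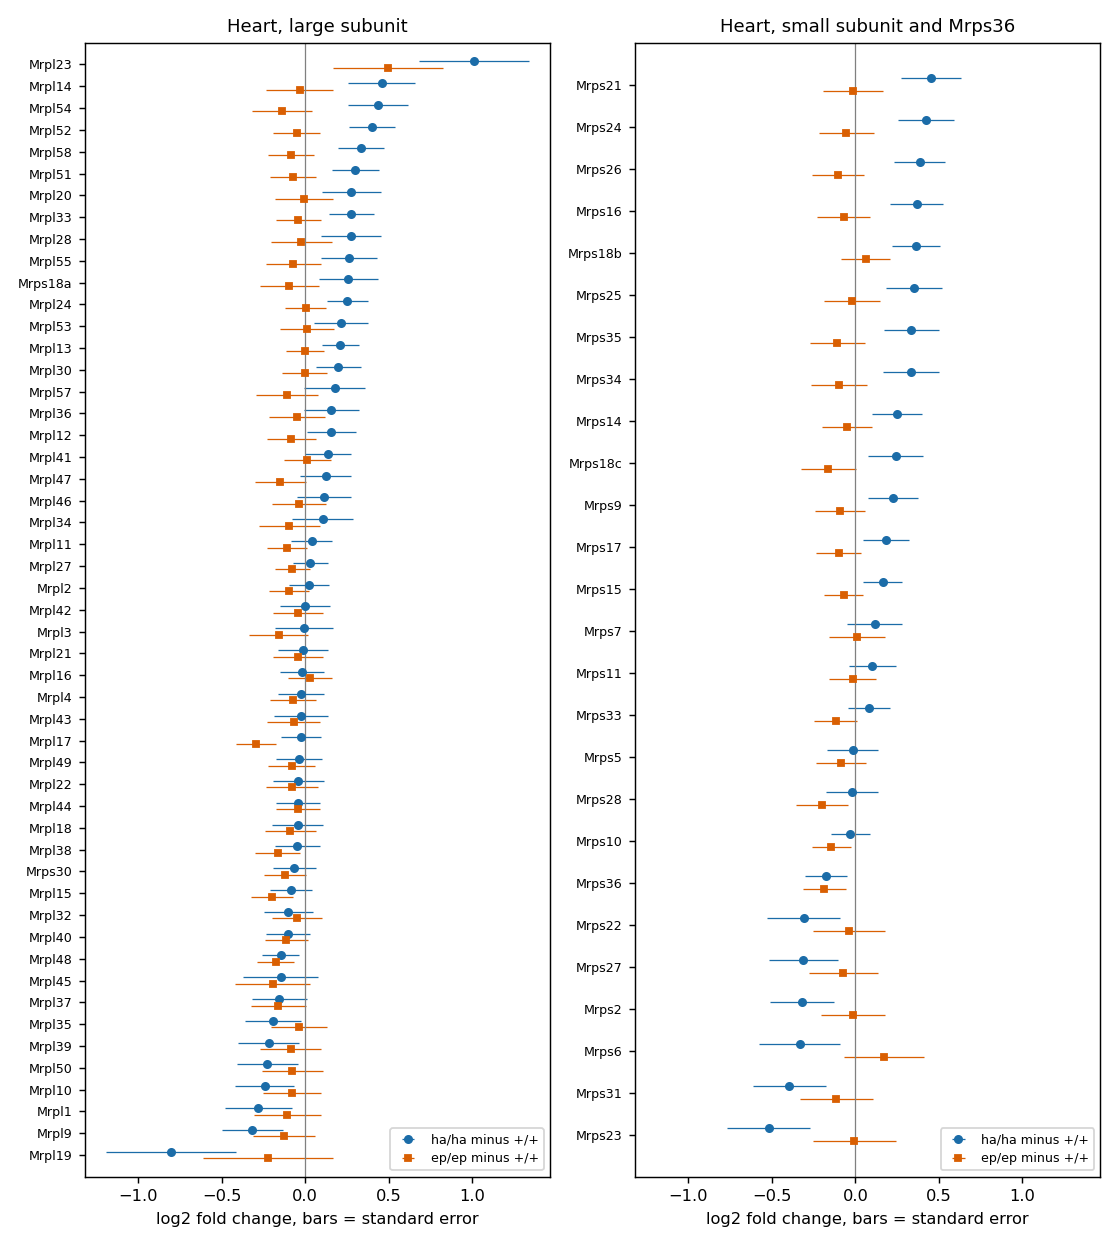
The log2 fold changes of the 77 genes in the heart (x axis, bars are standard errors) for Mrps12ha/ha (circles) and Mrps12ep/ep (squares) against the same 3 Mrps12+/+ hearts, sorted by the former, with the large subunit on the left and the small subunit with Mrps36 on the right. Circles run from -0.80 for Mrpl19 to 1.01 for Mrpl23, and most squares lie just below 0, with 69 of 77 on the lower side.

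The count of Mrpl23, a tunnel exit protein, could not be fully separated from that of a pseudogene. Mrpl23 lies on chromosome 7 of GRCm38 from 142532686 to 142540747, and its processed pseudogene Mrpl23-ps1, a copy without introns, on chromosome 2 from 74591330 to 74591909. In the GENCODE transcripts the pseudogene is identical to the gene in all 441 bases of the coding sequence. Over the 543 bases that could be placed side by side without a gap, 541 were identical. The Mrpl23 transcript has 692 bases and that of the pseudogene 580, so some bases of each lie outside these 543. The first 150 coding bases, with the start codon in capitals, show the stretch in which no read can be assigned to one of them.

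Mrpl23 and Mrpl23-ps1: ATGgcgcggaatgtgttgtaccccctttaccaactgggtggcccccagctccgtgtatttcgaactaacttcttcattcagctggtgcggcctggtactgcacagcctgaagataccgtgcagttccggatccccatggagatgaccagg

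In the deposited values the pseudogene had most of the shared count. Mrpl23 was at 167, 139 and 168 in Mrps12+/+, at 324, 246 and 138 in Mrps12ep/ep and at 353, 217 and 420 in Mrps12ha/ha hearts, and Mrpl23-ps1 was at 1271, 1530 and 1350, at 1562, 1167 and 1298 and at 1955, 1561 and 1872 in the same order. Mrpl23 thus made up 8.35% to 18.3% of their sum in hearts and 11.2% to 20.7% in livers. The log2 fold change of Mrpl23 in Mrps12ha/ha hearts, 1.01 (standard error 0.33), was the highest of the 77 genes, while that of the pseudogene was 0.37 and that of the sum 0.46. The sum was at 1438, 1669 and 1518 in Mrps12+/+ and at 2308, 1779 and 2292 in Mrps12ha/ha hearts, without overlap. In livers the difference for Mrpl23 had the other sign, -0.26, and that for the sum was 0.12.

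**Figure D5:**
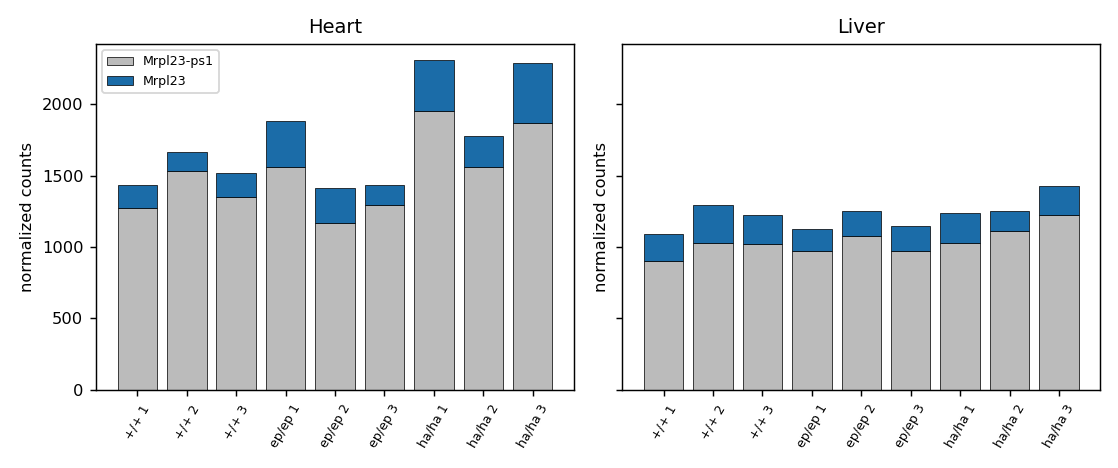
Normalized counts (y axis, from 0) assigned to Mrpl23 (blue) and to its pseudogene Mrpl23-ps1 (grey), stacked for each mouse (x axis) of the heart and the liver. The pseudogene holds most of each bar, and the bars of Mrps12ha/ha hearts 1 and 3 are the tallest, at 2308 and 2292.

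Of the 77 genes, Mrpl23, Mrpl37, Mrpl44, Mrps16 and Mrps34 encode proteins that the study followed by immunoblotting, beside MRPS12 itself. The study blotted mitochondrial proteins and reported more mitoribosomal protein in Mrps12ha/ha hearts. It reported the same increase from proteomics of isolated heart mitochondria. For Mrps12ep/ep hearts it described a small decrease of some of these proteins, and for livers of both mutants negligible effects. The values here are of RNA from whole tissue. Mrps16, the counterpart of bacterial S16, was at 1104, 1068 and 1024 in Mrps12+/+, at 1188, 933 and 942 in Mrps12ep/ep and at 1635, 1099 and 1441 in Mrps12ha/ha hearts. Mrps34 was at 1764, 1699 and 1328 in Mrps12+/+, at 1765, 1316 and 1391 in Mrps12ep/ep and at 2205, 1676 and 2160 in Mrps12ha/ha hearts. For both, Mrps12ha/ha mice 1 and 3 were the highest of the 9 hearts and mouse 2 overlapped the other genotypes. Their log2 fold changes in Mrps12ha/ha hearts were 0.37 and 0.33 (standard errors 0.16 and 0.17, adjusted p = 0.249 and 0.286 from limma).

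Mrpl37 and Mrpl44, both of the large subunit, did not share that direction. Mrpl23, also of the large subunit, was higher in Mrps12ha/ha hearts. Its log2 fold change was 1.01, and that of its sum with the pseudogene was 0.46. Mrpl37 was at 2871, 2633 and 2634 in Mrps12+/+, at 2943, 1906 and 2543 in Mrps12ep/ep and at 2196, 2818 and 2326 in Mrps12ha/ha hearts, a log2 fold change of -0.16 in Mrps12ha/ha mice. Mrpl44, a protein with an RNase III fold, was at 1866, 1651 and 1530 in Mrps12+/+, at 1775, 1414 and 1709 in Mrps12ep/ep and at 1559, 1827 and 1524 in Mrps12ha/ha hearts, a log2 fold change of -0.04. In livers the log2 fold changes of Mrps16, Mrps34, Mrpl37 and Mrpl44 in both mutants against Mrps12+/+ ran from -0.11 to 0.09.

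The paralogues Mrps18a, Mrps18b and Mrps18c derive from one bacterial protein, S18, and sit at different places in the ribosome. In the heart Mrps18a had the highest level per kb, 2902, followed by Mrps18b with 1438 and Mrps18c with 1018, and in the liver Mrps18b was first with 2537, before Mrps18a with 2081 and Mrps18c with 1515. The log2 fold changes in Mrps12ha/ha hearts were 0.26, 0.36 and 0.24 for a, b and c, and only for Mrps18b, with 1371, 1124 and 1160 in Mrps12+/+ and 1725, 1410 and 1556 in Mrps12ha/ha hearts, did the groups not overlap. In Mrps12ha/ha livers they were 0.05, -0.08 and 0.17.

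In the liver the log2 fold changes between genotypes ran from -0.39 to 0.82 over the 3 comparisons. For Mrps12ha/ha against Mrps12+/+ livers, 52 of the 77 genes were higher and 25 lower, with a median log2 fold change of 0.03, beside -0.02 over the 15314 genes tested. None passed with limma, as 0.00653% of all genes did, or with limma-voom, and 0 had an unadjusted p under 0.05, beside 14.1% of all genes. The groups did not overlap in 5 genes (6.49%) that were higher, beside 10.0% of all genes, and in 0 that were lower, beside 9.81%. Mrps12+/+ mouse 1 had the lowest value of the 9 livers in 33 genes, and it had skeletal muscle transcripts. Leaving it out gave 40 higher and 37 lower with a median of 0.01. Without overlap, 6 of the 77 genes were then higher, beside 15.8% of all genes, and 13 of the 77 lower, beside 17.3%. Leaving out Mrps12+/+ mouse 2, which also had skeletal muscle transcripts, gave 61 higher with a median of 0.09. Without overlap, 24 of the 77 genes were then higher, beside 17.2% of all genes, and 0 lower, beside 17.3%.

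The genes without overlap were Mrpl13, Mrpl58, Mrps5, Mrps11 and Mrps24. Of these, Mrps5, Mrps11 and Mrps24 belong to the 4 genes of the mRNA path, whose 4 log2 fold changes were all above 0 with a median of 0.19. The same 4 genes were also above 0 in Mrps12ep/ep livers, with a median of 0.15 and 0 genes without overlap, against the same Mrps12+/+ livers. Mrps5, the counterpart of bacterial S5, which shapes the mRNA entrance, was at 1845, 1932 and 1850 in Mrps12+/+, at 1800, 2366 and 2071 in Mrps12ep/ep and at 2416, 2243 and 1960 in Mrps12ha/ha livers, which limma gave as 0.23 on the log2 scale against Mrps12+/+ (standard error 0.12, adjusted p = 0.419). Mrps11 overlaps its neighbour Mrpl46 on chromosome 7, which lies on the other strand from 78775236 to 78783531 while Mrps11 starts at 78783119. Mrps11 had a log2 fold change of 0.19 in these livers and Mrpl46 was not among the separated genes. The counts were made by strand.

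The genes with the highest and the lowest log2 fold changes in Mrps12ha/ha livers varied within the genotypes. Mrpl19, at 0.43, was at 303, 776 and 301 in Mrps12+/+, at 832, 844 and 562 in Mrps12ep/ep and at 831, 666 and 314 in Mrps12ha/ha livers, so that values near 300 were found in 3 mice of 2 genotypes. Mrps35 was at 0.22. The lowest value was that of Mrpl23, and after it Mrpl17 was at -0.19 with 1535, 1895 and 2928 in Mrps12+/+ and 1856, 1581 and 1959 in Mrps12ha/ha livers, where Mrps12+/+ mouse 3 alone was high, and Mrps23 was at -0.19 too, with 1022, 1257 and 1171 in Mrps12+/+ and 1090, 1121 and 831 in Mrps12ha/ha livers.

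Mrpl13, Mrpl58 and Mrps24 were higher in every Mrps12ha/ha than in every Mrps12+/+ mouse in both tissues. These 3 genes are 3.90% of the 77, where 1.51% of the 14070 genes tested in both tissues were separated in this way. Mrpl13, the counterpart of bacterial L13, was at 1838, 1586 and 1582 in Mrps12+/+ and at 2023, 1866 and 1900 in Mrps12ha/ha hearts. In livers it was at 1367, 1551 and 1413 in Mrps12+/+ and at 1685, 1665 and 1656 in Mrps12ha/ha mice. The log2 fold change was 0.21 in each tissue (standard errors 0.11 and 0.10, adjusted p = 0.303 and 0.361 from limma), and it was also the one gene that was higher without overlap in Mrps12ha/ha than in Mrps12ep/ep mice in both (1.30% of the 77, beside 0.846% of all genes), as Mrps6 was the one that was lower (1.30%, beside 1.04%).

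Mrpl58, a ribosome-bound peptidyl-tRNA hydrolase that frees stalled ribosomes, was at 1238, 1236 and 1184 in Mrps12+/+ and at 1732, 1383 and 1510 in Mrps12ha/ha hearts. In livers it was at 1135, 1235 and 1197 and at 1297, 1311 and 1294. Its log2 fold changes were 0.33 and 0.13. Mrps24, the counterpart of bacterial S3 at the mRNA entrance, was at 1119, 1030 and 994 in Mrps12+/+ and at 1533, 1211 and 1489 in Mrps12ha/ha hearts, and at 1138, 1361 and 1357 against 1423, 1466 and 1466 in livers. Its log2 fold changes were 0.42 and 0.18. For none of the 3 genes did the adjusted p pass in either tissue.

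For Mrps12ep/ep against the same Mrps12+/+ livers, 56 genes were higher and 21 lower, with a median log2 fold change of 0.05, beside -0.01 over all genes. None passed with limma, as 0.00653% of all genes did, or with limma-voom, and 3 had an unadjusted p under 0.05, all higher, beside 9.74% of all genes. The groups did not overlap in 7 genes (9.09%) that were higher, beside 6.49% of all genes, and in 1 (1.30%) that was lower, beside 6.28%. Without Mrps12+/+ mouse 1 there were 38 higher and 39 lower. Of the 77 genes, 9 were then higher without overlap, beside 15.4% of all genes, and 9 lower, beside 15.2%. Without Mrps12+/+ mouse 2 there were 62 higher. Of the 77 genes, 19 were then higher without overlap, beside 12.5% of all genes, and 1 was lower, beside 12.1%. Mrps12ep/ep liver mouse 2 had the highest value of the 9 livers in 30 of the 77 genes. With each mouse left out in turn, the median log2 fold change ran from -0.02 to 0.11.

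Mrpl14 was among the 7 and was at 1460, 1670 and 1302 in Mrps12+/+ and at 1752, 1949 and 1729 in Mrps12ep/ep livers, which limma gave as 0.30 on the log2 scale (standard error 0.11, adjusted p = 0.456). Mrpl18, a 5S rRNA-binding family protein of the central protuberance, was at 2537, 2289 and 2045 in Mrps12+/+, at 3030, 2968 and 2390 in Mrps12ep/ep and at 2040, 2360 and 2094 in Mrps12ha/ha livers. It was 0.29 higher in Mrps12ep/ep than in Mrps12+/+ livers on the log2 scale, with overlap, and Mrpl19 was 0.82 higher with a standard error of 0.44. The gene that was lower without overlap was Mrpl23, at -0.39, with 190, 268 and 207 in Mrps12+/+ and 151, 174 and 178 in Mrps12ep/ep livers, and its sum with the pseudogene differed by -0.03. Mrpl17 and Mrps23 followed at -0.29 and -0.21, both with overlap.

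Between the mutant livers 34 genes were higher and 43 lower in Mrps12ha/ha mice, with a median log2 fold change of -0.01, beside -0.00 over all genes. None passed with limma (0.00653% of all genes did) or with limma-voom, and 2 had an unadjusted p under 0.05, both lower, beside 8.62% of all genes. The groups did not overlap in 2 genes (2.60%) that were higher, beside 8.82% of all genes, and in 5 (6.49%) that were lower, beside 9.01%. Mrpl18 had the clearest difference and was lower in every Mrps12ha/ha than in every Mrps12ep/ep liver, by limma -0.36 on the log2 scale (standard error 0.12, adjusted p = 0.509). Mrps31 was at 1777, 1493 and 1698 in Mrps12ep/ep and at 1400, 1491 and 1294 in Mrps12ha/ha livers, a log2 fold change of -0.25. At the upper end, Mrpl41, Mrps17 and Mrps36 were at 0.20, 0.18 and 0.18.

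The other genes of mitochondrial translation were counted from lists. In Mrps12ha/ha hearts, 4 of the 5 mitoribosomal protein genes with other names were higher than in Mrps12+/+ hearts, led by Gadd45gip1 and Aurkaip1, and their median log2 fold change was 0.26. The 28 genes of mitoribosome assembly and rRNA modification had a median of 0.05 with 16 higher, from -0.65 for Mettl15, which methylates the small subunit rRNA, to 0.76 for Dhx30, an RNA helicase of assembly. Of 15 tested mitochondrial translation factors 4 were higher, with a median of -0.19, from -1.17 for Taco1, a translational activator of Cox1, and -0.91 for the elongation factor Gfm1 to 0.36 for Slirp, which protects mitochondrial mRNAs. Of 6 genes of mitochondrial transcription 2 were higher, with a median of -0.34, and Tfam, which packages and transcribes mitochondrial DNA, was at -0.71. With all mice and no array weights, no gene of these lists passed the adjusted threshold in the heart or the liver.

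The nuclear genes of OXPHOS subunits stood beside them with a median log2 fold change of 0.29 in Mrps12ha/ha hearts. Of 77 tested genes 68 were higher and 0 were called. In 51 of them every Mrps12ha/ha heart was above every Mrps12+/+ heart, beside 11.1% of all genes. Without Mrps12ha/ha mouse 2 the median was 0.36 with 64 higher, and 31 of the 77 passed, beside 27% of all genes. In Mrps12ep/ep hearts the OXPHOS genes had a median of -0.08 with 72 lower. Without Mrps12ep/ep mouse 2, the heart with the lowest cardiomyocyte sum and the highest atrial and fibroblast sums, the median was 0.07 with 69 higher. In livers the median was 0.16 with 73 higher in Mrps12ha/ha mice and 0.08 with 61 higher in Mrps12ep/ep mice. The lowest values in Mrps12ha/ha livers were those of Cox8b and Cox6a2, the muscle forms of cytochrome c oxidase subunits, at -2.74 and -2.21, beside the skeletal muscle transcripts in Mrps12+/+ livers 1 and 2. Without Mrps12+/+ mouse 1 the medians were 0.11 and 0.03, and without mouse 2 they were 0.24 and 0.17.

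Promoter sequences of RefSeq on GRCm38.p6, with 250 bases before and 50 after the start of a gene, were found for 68 of the 77 genes, without Mrpl4, Mrpl13, Mrpl15, Mrpl19, Mrpl38, Mrpl54, Mrps28, Mrps34 and Mrps35. The letters CCGGAAG, the core bound by ETS factors such as GABP, were searched on both strands (CTTCCGG on the other) and occurred in 25 of the 68 (36.8%), beside 9.93% of the 27025 genes with a promoter in the table. GCATGCGC, part of the site of NRF1, occurred in 8 (11.8%), beside 3.05%, and AAGATGGCG, the core of a YY1 site, in 8 (11.8%), beside 1.64%. NRF1, GABP and YY1 are known regulators of nuclear genes for mitochondrial proteins. Genes with CCGGAAG were found at both ends of the fold changes in Mrps12ha/ha hearts, and the promoters of Mrps21, which was higher in each mouse, and Mrps23, which was lower in mice 1 and 3, are shown for this reason, with the letters of the ETS motif in capitals. The Mrps21 promoter lies on the minus strand at chr3:95871465-95871764 and the Mrps23 promoter on the plus strand at chr11:88204138-88204437.

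Mrps21: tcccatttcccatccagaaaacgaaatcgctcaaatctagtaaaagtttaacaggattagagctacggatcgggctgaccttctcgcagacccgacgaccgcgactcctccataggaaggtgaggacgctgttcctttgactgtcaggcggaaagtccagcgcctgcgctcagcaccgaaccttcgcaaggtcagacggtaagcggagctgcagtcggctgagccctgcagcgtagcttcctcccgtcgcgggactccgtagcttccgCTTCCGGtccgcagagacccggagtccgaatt
Mrps23: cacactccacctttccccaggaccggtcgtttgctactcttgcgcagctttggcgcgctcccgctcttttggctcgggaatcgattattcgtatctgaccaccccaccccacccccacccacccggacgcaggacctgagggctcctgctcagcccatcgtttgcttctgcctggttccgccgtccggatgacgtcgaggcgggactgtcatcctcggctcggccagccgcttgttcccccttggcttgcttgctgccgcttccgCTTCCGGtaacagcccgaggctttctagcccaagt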

How the data were processed

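RNA from hearts and livers of 9 mice for each tissue was measured, 3 of each genotype, in 54 libraries. Per the labels and the methods, the authors trimmed reads with Trim Galore 0.4.1 and cutadapt 1.18, checked them with FastQC 0.11.8, pooled the technical libraries of a mouse, quantified GENCODE vM21 transcripts of GRCm38.p6 by strand with Salmon 1.1.0 and normalized with DESeq2. That the pooled libraries were the technical ones was read from the labels, as the methods write of pooled biological replicates. The deposited values are normalized counts rounded to 1 decimal, in 1 table for each tissue, and were used as the authors gave them. The 4 tables of the authors' own comparisons (means, log2 fold changes, standard errors, p-values) were not used. Columns were joined to groups by their names, and 0 columns belonged to no sample.

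Values were fitted as log2(normalized count + 1) with limma 3.58.1 (lmFit, eBayes with trend) in R 4.3.3, all 3 genotypes of a tissue together, for genes with a mean of at least 10. P-values were two-sided and adjusted by the Benjamini-Hochberg method over all tested genes, with a threshold of 0.05. All 77 genes were tested in both tissues. The test was tried on simulated data. Planned count models (edgeR and DESeq2) were not run, as the deposited values are no counts. Reads were estimated from the step of the low values, for depth and limma-voom only. Adding 1 understates fold changes of low genes. One set of Mrps12+/+ mice served both mutants. As alternatives, 0.5 or 8 was added before the log, low genes were kept or those under a mean of 50 dropped, mice were quantile-normalized or re-centred, and the others were 2 genotypes in the fit, array weights, a replicate block, each mouse left out, and limma-voom on recovered reads, the last chosen after seeing the data. Genes named were those blotted by the study, the 3 highest and lowest fold changes of a comparison and levels per kb of a tissue, genes separated in both tissues, and the Mrps18 paralogues. The members and lists were chosen with earlier results of these data known. Python 3.11.15 with pandas 2.3.3 was used for the rest.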

Additional observations from a re-analysis of the deposited data

How the results depend on the processing

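No gene passed in any of the 6 comparisons under the alternatives other than array weights and leaving out Mrps12ha/ha heart mouse 2. With array weights 30 genes passed between Mrps12ha/ha and Mrps12+/+ hearts and 33 between the mutant hearts, and leaving out each mouse in turn gave 0 to 18 and 0 to 19, with the highest counts without Mrps12ha/ha mouse 2. The other 4 comparisons gave 0 genes throughout. Under every alternative the median log2 fold changes moved by less than the SD of the median between mice (0.139 for hearts, 0.0908 for livers). That SD is between single mice and not of a difference between groups, so it does not measure how stable these medians are. Leaving out single mice changed the sign of the median for Mrps12ep/ep against Mrps12+/+ in the heart (-0.18 to 0.05) and the liver (-0.02 to 0.11). The sign also changed for the mutant livers (-0.05 to 0.05). The median of Mrps12ha/ha against Mrps12+/+ ran from 0.02 to 0.10 in hearts and from 0.01 to 0.09 in livers. Between the mutant hearts it ran from 0.02 to 0.27. Of the single genes, Mrps6 in Mrps12ep/ep hearts turned from 0.17 to -0.0891 with array weights and ran from -0.12 to 0.35 with single mice left out, Mrps18b in Mrps12ep/ep hearts ran from -0.0625 to 0.15, Mrpl19 in Mrps12ha/ha against Mrps12+/+ livers turned from 0.43 to -0.11 with array weights, Mrpl19 between mutant livers ran from -0.68 to 0.0199, and Mrpl17 in Mrps12ha/ha livers from -0.39 to 0.0709. With the union of exons as the length, an alternative added after seeing the data, hearts had a median level of 711 per kb and livers 643. The cause of these changes was not tested. Each value rested on at least 72 reads, depth was lowest in Mrps12ha/ha heart 2 (11202975 reads), and its part in these changes was not tested. With the replicate number as a block 0 genes passed in each comparison. With 1 mouse of each genotype for a number, a block cannot change a fold change. The correlations of the deviations of same-numbered mice from the group means ran from -0.231 to 0.578 in the heart and from -0.133 to 0.164 in the liver. Those of mice with different numbers ran from -0.593 to 0.345 in the heart and from -0.289 to 0.161 in the liver. Between Mrps12+/+ and Mrps12ep/ep hearts the correlation was 0.578 for mice 1, 0.409 for mice 2 and -0.07 for mice 3. Whether same-numbered mice belong together was not tested. Planned edgeR and DESeq2 tests were not run: the deposited values are rounded normalized counts, and the reads behind them are estimates from the step of the low values, which did not qualify as deposited counts and served for depth and limma-voom only.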
